A study of Glycine max with 6 samples.

Results

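The genes described here encode the enzymes that set the degree of unsaturation of soybean (Glycine max) seed oil and that complete its assembly. They were taken as all soybean probe sets whose gene symbol in the array's annotation begins with FAD2, FAD3 or DGAT. The rule goes by name, but these families were chosen with earlier results of these data known. There were 10 such probe sets, for 7 genes, among 37593 for soybean: 5 of FAD2 genes (FAD2-1A, FAD2-2 and FAD2-3), 3 of FAD3 genes (FAD3B and FAD3C) and 2 of DGAT genes (1 of DGAT1A, and 1 shared by DGAT1A and DGAT1b). In NCBI Gene these are FAD2-1A (547814), FAD2-2 (547815), FAD2-3 (732617), FAD3B (100037456), FAD3C (547470), DGAT1A (548005) and DGAT1b (732606). The annotation names 6388 soybean genes in all. RefSeq lists 7 FAD2, 4 FAD3 and 3 DGAT genes by these symbols, and those with no probe set named in the annotation, FAD2-1B and FAD3A among them, were not analysed here. Probe sequences were not used here, and whether the FAD2-1A probe sets also match FAD2-1B, or other members their close relatives, was not tested.

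FAD2 enzymes sit in the endoplasmic reticulum and add a further double bond to oleate, held on the membrane lipid phosphatidylcholine, which gives linoleate, the main fatty acid of soybean oil. FAD3 enzymes act on linoleate in the same membrane and give linolenate. DGAT enzymes join an acyl chain to diacylglycerol, the last step in making triacylglycerol, the storage oil that fills the cells of the cotyledon. In soybean the FAD2-1 genes are known as the seed type, whose loss gives high-oleic oil, while FAD2-2 genes are known to be active in many organs.

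Signals came from cotyledons, the storage leaves of the seed, harvested at 150 mg. RNAi line 1 and RNAi line 2 are independent transgenic lines carrying an RNA interference construct against seed storage proteins, a transgene product that lowers transcripts of matching sequence. The control was nontransgenic and is called jack, a soybean cultivar, in 1 label. Each of these 3 samples was hybridised to 2 technical replicate arrays. The sources used here do not give the construct's promoter or target sequences, the growth conditions or the number of seeds pooled. With 1 control sample, anything else that set it apart from the lines cannot be told apart from the transgene, and fewer cells of a type cannot be told apart from less RNA per cell.

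Values are the deposited signals on a linear scale, and changes are differences in log2(signal + 16), RNAi minus control, a scale that slightly understates changes of dim probe sets. A probe set was detected above the 95th percentile of the array's probe sets for other organisms, a bound of 68.4 to 91.7 by array, and 27460 soybean probe sets detected on both arrays of at least 1 sample were tested. Cotyledon markers came from a list of storage protein, protease inhibitor, lectin, P34 and lipoxygenase genes. Their summed signals were 467895 to 638110 on the RNAi arrays and 821194 to 838740 on the control arrays. On every array 16 of their 18 probe sets were detected. Of these 18, 5 were called lower and 0 higher. The set includes storage protein genes, the class that the construct is against, so its sum does not measure tissue content alone. Seed coat markers summed to 12858 to 14136 on the RNAi arrays and 23843 to 24944 on the control arrays, with ANR1, Ep and PRP1 below background on every array and 2 of 21 probe sets called in each direction. Leaf markers summed to 102682 to 141342 on the RNAi arrays and 130233 to 136762 on the control arrays, with 0 of 13 probe sets called lower and 2 higher. The shares called over all tested probe sets were 0.594% lower and 1.05% higher. The 3′ to 5′ signal ratio of the actin control, a sign of RNA integrity, was 0.845 to 0.943 on the RNAi arrays and 1.20 to 1.21 on the control arrays. The 3′ to middle ratio of the GAPDH control overlapped, at 1.03 to 1.16 on the RNAi arrays and 1.13 to 1.18 on the control arrays. The spiked-in poly-A RNAs had a geometric mean signal of 1826 to 1944 on the RNAi arrays and 5538 to 5736 on the control arrays, and the hybridisation controls had one of 2330 to 2853 on the RNAi arrays and 3611 to 3684 on the control arrays. The part of these shifts in the results was not tested, and values with the arrays rescaled to the spikes are given beside them.

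All 5 FAD2 probe sets had lower signals in both RNAi lines than in the control, by 2.23-fold to 4.11-fold, while the 2 DGAT probe sets were 1.83-fold and 2.29-fold higher and the FAD3 probe sets differed least. The FAD2 direction held with the deposited scaling, median centring, quantile normalization and scaling to the hybridisation controls, but under poly-A spike scaling 4 of the 5 turned to between 0.27 and 0.42, where the median tested probe set stood at 1.52. In the plot of signals by array, no RNAi array of a FAD2 or DGAT probe set falls among the control arrays. Such a lack of overlap was common, with 23.6% of all tested probe sets wholly below the control arrays and 25.9% wholly above.

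**Figure D1:**
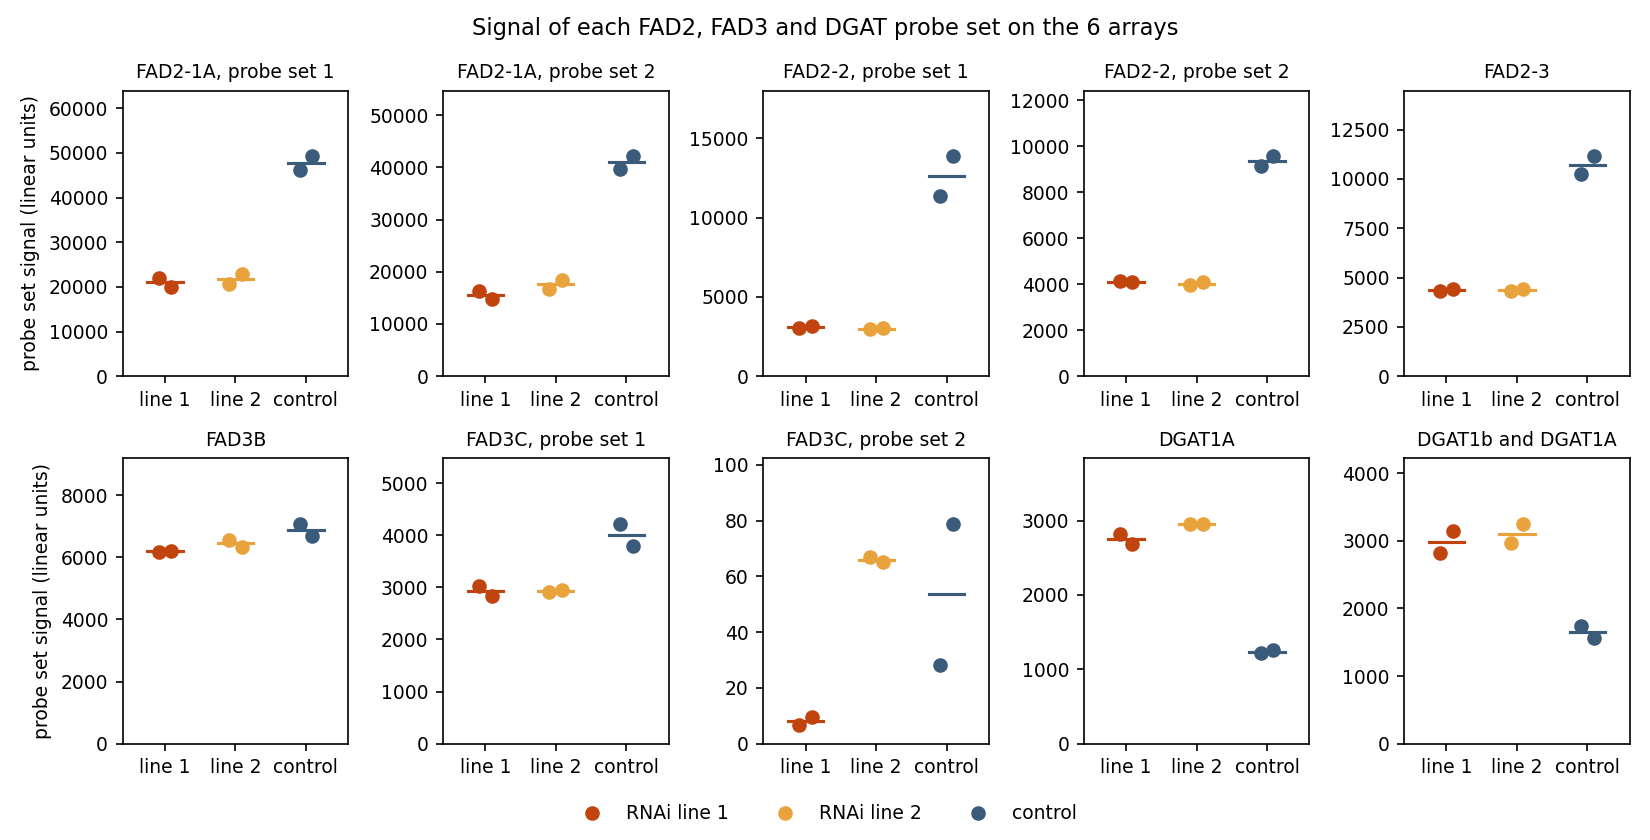
Signal of each of the 10 probe sets (linear units, axes from 0) on the 2 arrays of RNAi line 1, RNAi line 2 and the control; points are arrays and bars their mean. FAD2 signals are lower and DGAT signals higher on all 4 RNAi arrays than on both control arrays (4 of the 5 FAD2 differences turn upward with poly-A spike scaling), and probe set 2 of FAD3C lies near background.

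The seed-type gene FAD2-1A was the brightest of the group. Its brighter probe set, by mean signal over the 6 arrays, had signals of 22094 and 19902 in RNAi line 1 and 20675 and 22830 in RNAi line 2, against 46093 and 49210 in the control. The lines overlapped each other, and all 4 of their arrays stood at less than 50% of either control array. The log2 difference was -1.16 (SE 0.10), a 2.23-fold lower level that narrowly missed the threshold of 0.05 (limma on sample means, adjusted p = 0.0505).

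The dimmer FAD2-1A probe set had 16259 and 14800 in RNAi line 1 and 16766 and 18410 in RNAi line 2, against 39806 and 42121 in the control. Here too every RNAi array was far below both control arrays, with a log2 difference of -1.31 (SE 0.13, adjusted p = 0.0514). The difference between its values in the lines, 0.18 as line 2 minus line 1 on the log2 scale, was the largest among the 9 tested members, and it was not called (adjusted p = 0.949, limma on 6 arrays). The 2 probe sets of this gene thus gave like sizes, apart by 0.22 in line 1 and 0.088 in line 2.

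FAD2-1A had mean control signals of 47652 and 40963. Of the tested probe sets, 205 reached 30000 in the control. Their median difference was -0.20, and 7 (3.41%) were lower than the brighter FAD2-1A probe set, against 1.22% of all tested probe sets. These 7 were 4 probe sets of the storage protein genes GY2 and CG-BETA-1, 2 with no gene name in the annotation, and the other FAD2-1A probe set.

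FAD2-2, an oleate desaturase outside the seed type, had the largest difference of the 9 tested members. At its brighter probe set signals were 3046 and 3148 in RNAi line 1 and 2946 and 3020 in RNAi line 2, against 11359 and 13861 in the control. The 4 RNAi arrays were close to each other and far below both control arrays. The gap between the control arrays, 0.29 on the log2 scale, was the widest between arrays of 1 sample among the 9 tested members. The fall was 4.11-fold (log2 difference -2.04, SE 0.10, adjusted p = 0.0488), and 50 of the 27460 tested probe sets had a lower difference.

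The dimmer FAD2-2 probe set gave a smaller fall. Its signals were 4117 and 4085 in RNAi line 1 and 3975 and 4072 in RNAi line 2, against 9142 and 9549 in the control, with a log2 difference of -1.20 (SE 0.10, adjusted p = 0.0497). The brighter probe set lay below it by 0.83 in line 1 and 0.85 in line 2 relative to the control. The array identifier of the dimmer probe set marks probes that match more than 1 transcript, so its value may include other genes.

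FAD2-3, a further oleate desaturase gene of the family, fell by 1.29 on the log2 scale (SE 0.10, adjusted p = 0.0490), a 2.44-fold change. At its single probe set signals were 4304 and 4406 in RNAi line 1 and 4328 and 4409 in RNAi line 2, against 10239 and 11143 in the control. The 4 RNAi arrays were nearly equal, and this probe set too is marked as matching more than 1 transcript.

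The seed-type gene and the other FAD2 genes can be compared by the size of their changes within the same arrays. The change of FAD2-2 at its brighter probe set lay below that of FAD2-1A by 0.83 in RNAi line 1 and 0.94 in RNAi line 2, a mean of -0.88 ± 0.07 (SD, n = 2 lines). Both lines are set against the same control sample, so this SD leaves out the spread of the control. The mean was -0.98 without control array 1 and -0.79 without control array 2. For FAD2-3 the change lay 0.11 and 0.16 below that of the brighter FAD2-1A probe set. Set against the dimmer one its order turned with the line, with FAD2-3 at -1.29 in both lines and FAD2-1A at -1.40 in line 1 and -1.22 in line 2. The smaller FAD2-2 value lay between the 2 values of FAD2-1A. These differences are values with no test, and an exact permutation test of 2 lines against 1 control could not go below 0.333.

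FAD3 genes differed little. FAD3B, a linoleate desaturase, had 6182 and 6205 in RNAi line 1 and 6570 and 6326 in RNAi line 2, against 7075 and 6674 in the control. The groups did not overlap, but the nearest arrays of RNAi and control were 6570 and 6674. The log2 difference was -0.12 (SE 0.10, adjusted p = 0.458), and it turned to 0.37 with hybridisation control scaling and 1.45 with poly-A spike scaling.

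FAD3C, another linoleate desaturase, had 3020 and 2828 in RNAi line 1 and 2911 and 2950 in RNAi line 2, against 4216 and 3788 in the control at its brighter probe set. All RNAi arrays were below both control arrays, with a log2 difference of -0.45 (SE 0.10, adjusted p = 0.0893) that turned to 0.045 with hybridisation control scaling and 1.12 with poly-A spike scaling. The other FAD3C probe set was detected on 1 of 6 arrays and was not tested. Its signals were 6.56 and 9.53 in RNAi line 1, 66.9 and 65.2 in RNAi line 2 and 28.2 and 78.9 in the control, of which the last alone exceeded the background bound, so it gives no reading of the gene.

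DGAT1A, an acyltransferase of the last step of oil assembly, differed in the other direction. Its own probe set had 2821 and 2687 in RNAi line 1 and 2956 and 2954 in RNAi line 2, against 1214 and 1261 in the control. Each RNAi array was more than double either control array, with a log2 difference of 1.19 (SE 0.11), 2.29-fold higher, at an adjusted p of 0.0507 that missed the threshold.

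The probe set shared by DGAT1A and DGAT1b had 2816 and 3151 in RNAi line 1 and 2962 and 3251 in RNAi line 2, against 1745 and 1561 in the control. The groups were again apart, with a log2 difference of 0.88 (SE 0.10, adjusted p = 0.0547). Both DGAT differences stayed positive under all 4 other scalings, and the change of DGAT1A lay above that of FAD2-1A by 2.33 in line 1 and 2.38 in line 2.

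Counted together, 9 of the 10 probe sets passed the filter on low signals, and 3 of these 9 were called lower at an adjusted p below 0.05 (both probe sets of FAD2-2 and that of FAD2-3) and 0 higher. Over all tested probe sets 0.594% were called lower and 1.05% higher. All 3 calls were lost under median centring, quantile normalization, a pseudocount of 1, no filter or robust moderation, and with poly-A spike scaling 7 members were called, 6 of them higher. The RNAi arrays lay wholly below the control arrays at 7 of the 9 members, against 23.6% of all tested probe sets, and wholly above at 2, against 25.9%. Because those shares are high, the lack of overlap alone says little of any member. The 3 calls and the near misses lay between adjusted p-values of 0.0488 and 0.0547, on 1 residual degree of freedom, and without any 1 of the 4 RNAi arrays 0 members were called, with 7 called when either control array was left out.

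Each line was also compared with the control on single arrays, where p-values measure technical spread alone. In RNAi line 1, 6 members were called lower and 2 higher, against 6.32% and 7.97% of all tested probe sets. In RNAi line 2, 6 were called lower and 2 higher, against 6.91% and 8.48%. The 8 were the 5 FAD2 and 2 DGAT probe sets and FAD3C, and FAD3B was called in neither line (adjusted p = 0.314 and 0.527). Leaving out either array of RNAi line 1 left 5 members called in that line.

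The lines share the 1 control sample, so their differences from it are not independent. FAD2-2 had log2 differences of -2.01 in RNAi line 1 and -2.07 in RNAi line 2 (adjusted p = 0.00342 and 0.00313, limma on 6 arrays), FAD2-3 of -1.29 in both, and FAD2-1A of -1.18 and -1.13 at its brighter probe set. DGAT1A had 1.14 and 1.25 (adjusted p = 0.00518 and 0.00436). Between the lines 0 of the 9 members and 0% of all tested probe sets were called by limma. At an unadjusted p below 0.05 there were 0 members and 1598 probe sets. The members' differences between lines ran from 0.0037 to 0.18 in size on the log2 scale, beside gaps of 0.00093 to 0.29 between technical arrays of 1 sample, and spread between samples of 1 line was not measured.

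**Figure D2:**
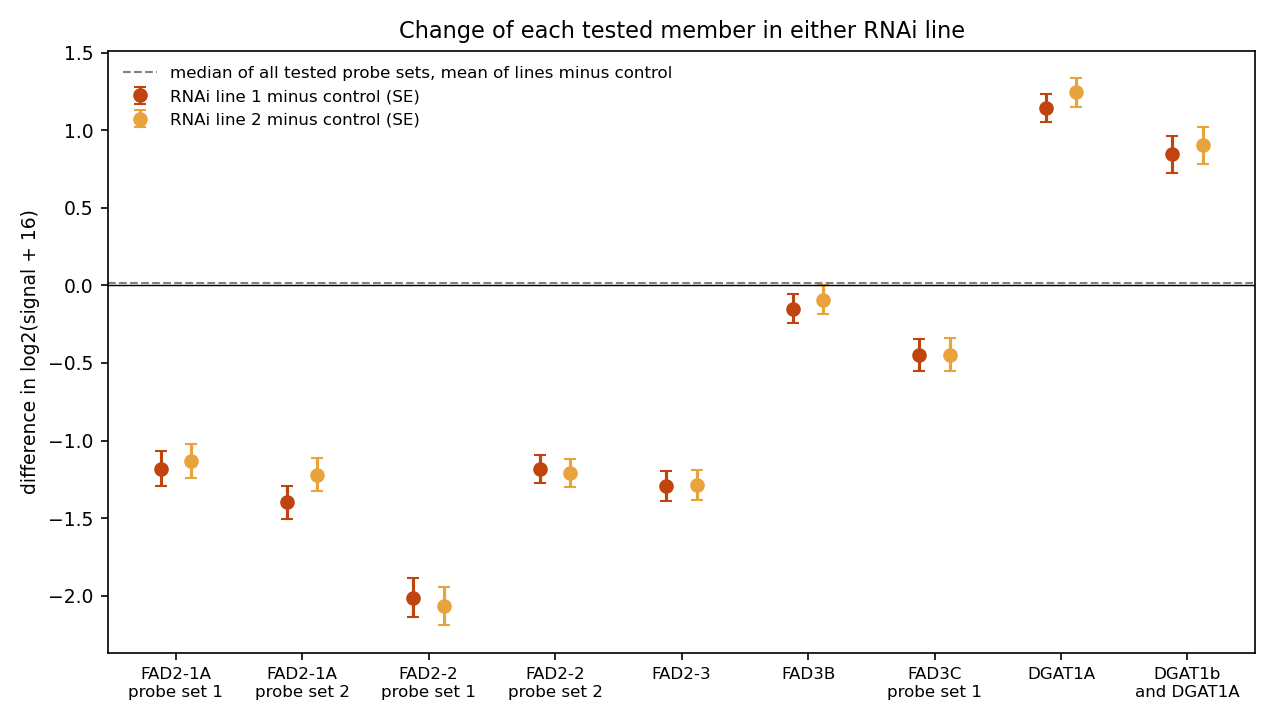
Difference in log2(signal + 16) of RNAi line 1 and RNAi line 2 from the control for the 9 tested probe sets, with the SE of the 6-array fit; the dashed line is the median of all tested probe sets, 0.016. The FAD2 points run from -2.07 to -1.13 and the DGAT points from 0.85 to 1.25, with the lines side by side in each (under poly-A spike scaling 4 FAD2 probe sets turn upward).

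Against all tested probe sets of like control signal, the FAD2 and DGAT members lay at the edges. The tested probe sets were ordered by control signal into 21 groups. In the group with control signals of 7762 to 29895, 2 of 1168 probe sets had a lower difference than FAD2-2 at its brighter probe set, and 14 had a lower one than FAD2-3. For DGAT1A 9 of 1373 probe sets with control signals of 1176 to 1477 were higher. FAD3B and FAD3C lay inside the 5th to 95th percentile of their group, -0.73 to 0.53, with 40.9% and 12.9% of its probe sets lower. These ranks describe position and are no test.

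**Figure D3:**
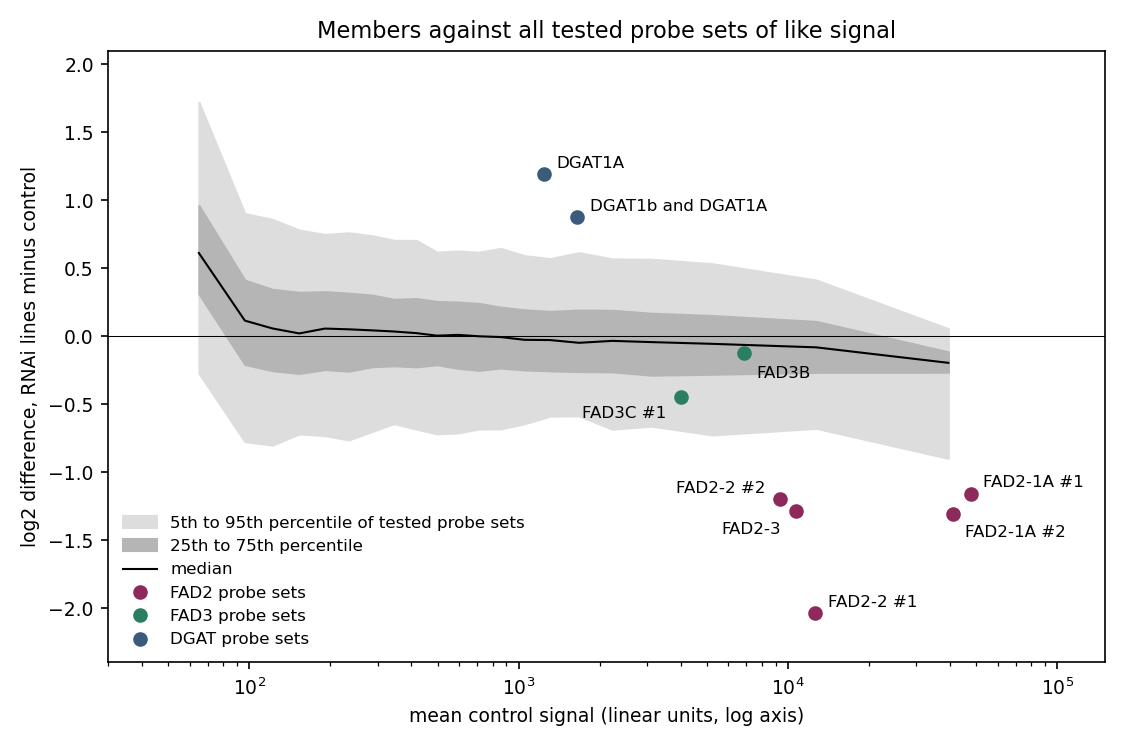
Log2 difference, RNAi lines minus control, against the mean control signal (log axis) for the 9 tested members (# gives the probe set, ordered by mean signal), over the median and the 25th to 75th and 5th to 95th percentile bands of all tested probe sets. The FAD2-2 and FAD2-3 points are below and the DGAT points above the outer band, and both FAD3 points are within it. The FAD2-1A points stand to the right of where the band ends, and are below the 5th percentile of their signal group (-0.90).

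The tested members had a median difference of -1.16 and all 27460 tested probe sets one of 0.02. Of the rest of the fatty acid and oil pathway, 29 probe sets had a symbol in the list drawn up for it. They were of plastid fatty acid synthesis, plastid desaturases, glycerolipid assembly and regulators. None was of an oil body protein or of the regulators LEC2, FUS3 and ABI3, so the counts cover part of the pathway. Of the 29 probe sets, 27 were tested. In these 27 there were 1 called lower and 0 higher, 21 below 0 and 6 above, and the median was -0.20. Over all tested probe sets 0.594% were called lower and 13265 of 27460 were below 0. On single arrays 7 of the 27 were called in RNAi line 1 and 8 in RNAi line 2. Of all 27460 tested probe sets, 3924 and 4226 were called in these lines. Most of the listed ones were probe sets of the ACCA genes, which encode the same enzyme subunit and are described below. LEC1-A was also called in both lines, as was 1 probe set of ACCC-2 (log2 differences -0.48 and -0.42). Another ACCC-2 probe set was called in neither line, and WRI1B was called in RNAi line 2 alone. With arrays scaled to the hybridisation controls 9 of the 27 were below 0, and with poly-A spike scaling 1 was.

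Plastid fatty acid synthesis supplied most of the list, with 19 tested probe sets, 16 of them below 0, and a median of -0.22. The probe set called lower was 1 shared by ACCA-2 and ACCA-3, which encode a carboxyltransferase subunit of the plastid acetyl-CoA carboxylase, the first committed enzyme of fatty acid synthesis. It had mean signals of 264 and 270 in the lines and 881 in the control (log2 difference -1.69, SE 0.10, adjusted p = 0.0488), and is singled out after its value was seen. The other 4 probe sets for the same subunit had -1.06 to -0.53, none called over both lines, though all 4 were called lower in each line on single arrays. SACPD-C, a stearoyl-ACP desaturase that makes the oleate on which FAD2 acts, was bright at 28650 and 31932 in the lines and 33898 in the control, with a difference of -0.17 (adjusted p = 0.394). FAT1, a thioesterase that releases saturated chains, had -0.32 and -0.10 at its probe sets. The 3 probe sets above 0 were all of KAS genes, and none was called. They had 0.31 (shared by KASII-B and KASII-A), 0.22 (shared by LOC548028 and KASI) and 0.11 (KASII-A), while another KASII-A probe set had -0.02.

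The plastid desaturases act on chloroplast lipids rather than on oil precursors. FAD6.1, FAD7-2 and FAD8.2 had 4 tested probe sets with differences from -0.55 (FAD7-2, adjusted p = 0.0735) to 0.071, and 0 were called in the main comparison or in either line. Both regulators of the list had lower signals. LEC1-A, whose Arabidopsis relative directs embryo development, had 3678 and 3808 in the lines and 5993 in the control (-0.67, adjusted p = 0.0646). WRI1B, whose Arabidopsis relative activates fatty acid synthesis genes, had 1487 and 1241 in the lines and 2045 in the control (-0.58, adjusted p = 0.115).

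In glycerolipid assembly both tested probe sets had positive differences, neither called. LOC100527582, a gene with the RefSeq synonym DGAT3-2, had mean signals of 869 and 886 in the lines and 617 in the control (0.49, adjusted p = 0.0808). AAPT1, an enzyme that makes phosphatidylcholine from diacylglycerol, had 0.21 (adjusted p = 0.249). Over the whole list the RNAi arrays lay wholly below the control arrays at 13 of the 27 probe sets and wholly above at 4, against the 23.6% and 25.9% of all tested probe sets. With poly-A spike scaling 26 of the 27 listed probe sets had positive differences.

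**Figure D4:**
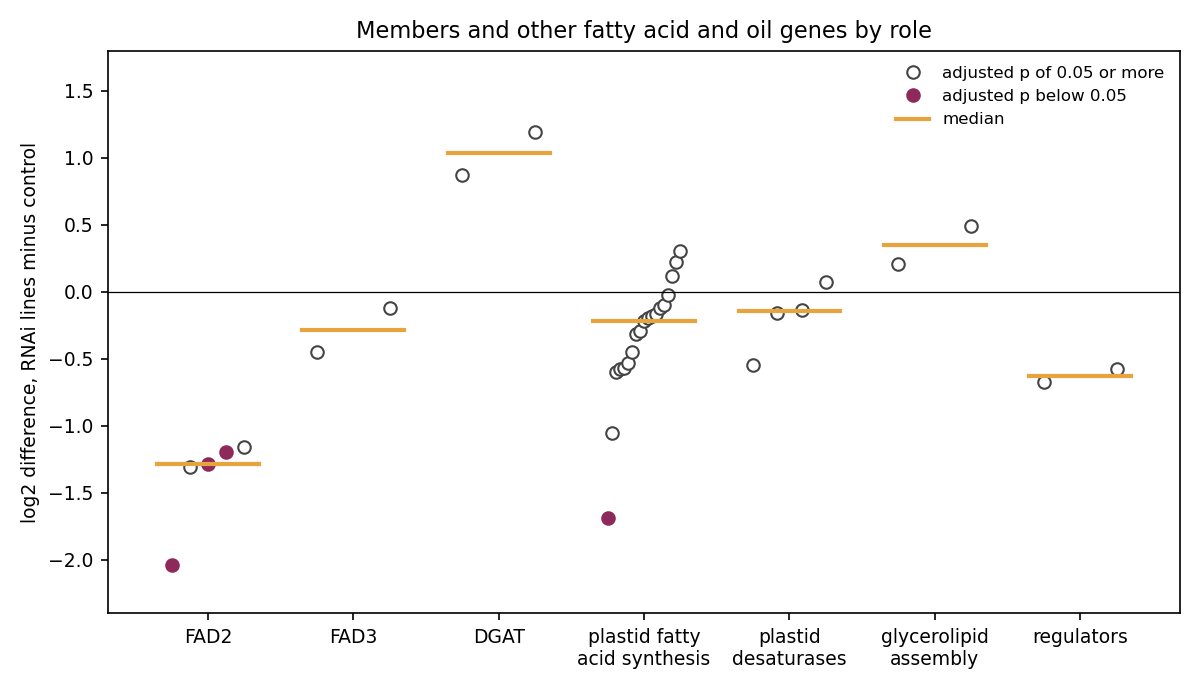
Log2 difference, RNAi lines minus control, for each tested probe set of the FAD2, FAD3 and DGAT genes and of the other pathway genes by role; filled points had an adjusted p below 0.05 and bars are medians. The FAD2 median is -1.29, that of plastid fatty acid synthesis -0.22 and that of DGAT 1.03; with poly-A spike scaling 4 FAD2 points and all but 1 of the other pathway points stand above 0.

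The choice of scaling moved the members together with all other probe sets. Scaled to the hybridisation controls, the median tested probe set moved to 0.49, and scaled to the poly-A spikes to 1.52. Taken relative to that median, the FAD2 differences ran from -2.06 to -1.17 with the deposited scaling, from -2.04 to -1.15 with hybridisation controls and from -1.98 to -1.10 with the poly-A spikes. The DGAT differences, likewise relative to the median, ran from 0.86 to 1.18 with the deposited scaling, from 0.88 to 1.19 with hybridisation controls and from 0.92 to 1.23 with the poly-A spikes. Under the poly-A scaling FAD2-2 at its brighter probe set had a negative difference (-0.46) and the other FAD2 probe sets positive ones.

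**Figure D5:**
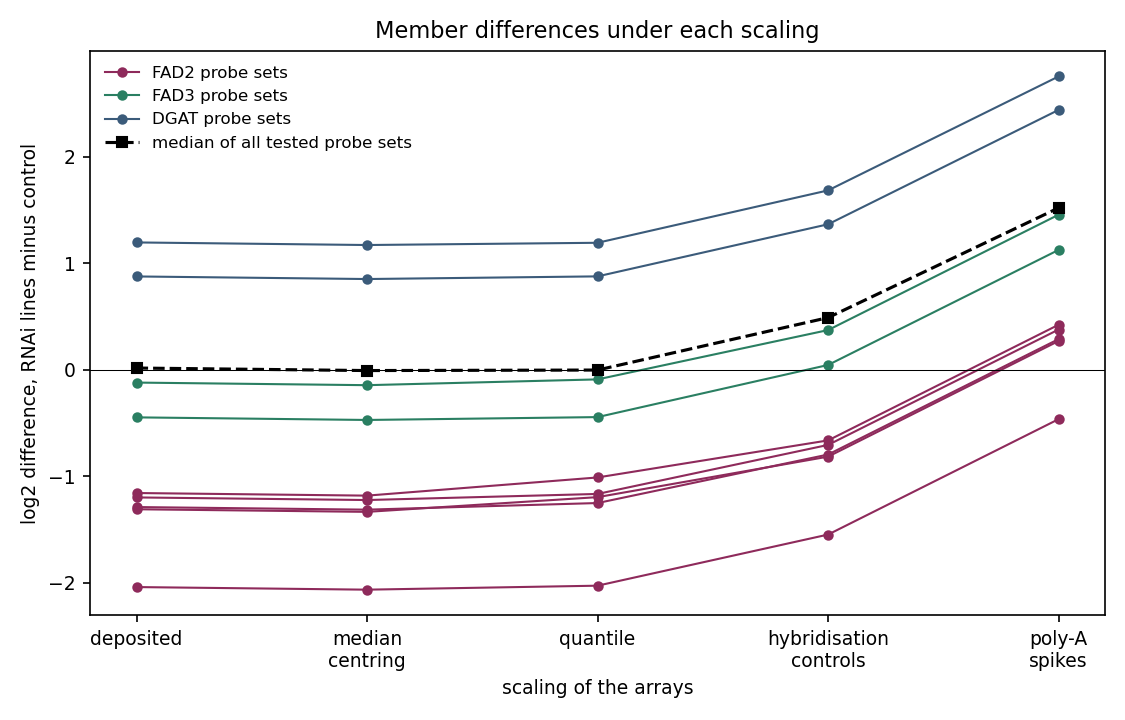
Log2 difference, RNAi lines minus control, of each tested member under the deposited scaling and 4 others; lines join the values of 1 probe set and black squares are the median of all tested probe sets. The order of members barely changes, while the whole set moves up by about the median's 0.49 and 1.52 under the control-RNA scalings, which takes 4 FAD2 probe sets above 0 with the poly-A spikes.

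For each gene the 3 nearest profiles were sought among 1189 tested probe sets with 1 gene name, as the distance over the 6 arrays of log2 values set to the control mean. With 3 samples, likeness reflects mainly a difference of similar size from the control. The brighter FAD2-2 probe set was nearest to both probe sets of CG-BETA-1, a storage protein gene (distances 0.19 and 0.40), and then to SFERH-2, a ferritin gene (0.80). CG-BETA-1 had log2 differences of -2.05 and -2.18 beside the -2.04 of FAD2-2. FAD2-1A was nearest to the other FAD2-2 probe set (0.17), MYB112 (0.22) and BZIP59 (0.29), the last pair named as transcription factors. FAD2-3 was nearest to ERF6 (0.096), the same FAD2-2 probe set (0.19) and SFERH-2 (0.20). DGAT1A was nearest to GASA14 (0.15), GA2OX6, a gibberellin oxidase gene (0.18), and BZIP77 (0.21), whose differences were 1.15, 1.23 and 1.12, none of them called. The profiles of FAD3B and FAD3C lay nearest to MDH-1 (0.071) and GF14B (0.089).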

How the data were processed

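Total RNA was labelled with a one-cycle Affymetrix kit, per the labels. The authors deposited 1 intensity per probe set and array, linear in scale. Arrays shared a common scale: without the lowest and highest 2% of probe sets, each array's mean was 500.1. The sources used here give no software, scan settings or genome build, so no coordinates are given. Symbols came from the platform annotation (9047 probe sets listed, of which 9000 matched RefSeq assembly Glycine_max_v4.0 by gene identifier). A probe set with several symbols names no gene.

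Models used limma 3.58.1 in R 4.3.3 (lmFit, eBayes) with Benjamini-Hochberg adjustment over all 27460 tested probe sets. Log2 values of the 2 technical arrays were averaged per sample, leaving 3 means and 1 residual degree of freedom; the control is assumed to vary like the lines. Single lines were compared on the 6 arrays, so those p-values measure technical spread. Fits were tested on simulated data. There the fit on 3 means missed differences of about the size seen for FAD2-1A and DGAT1A. It found most larger ones with spreads drawn from the fitted trend, a setting chosen after spreads of single probe sets had given none. The simulation changed few probe sets and held technical spread alone, whereas 9095 probe sets here had an unadjusted p below 0.05 (limma on sample means). It therefore does not set what the fit can find here, where a 2.30-fold fall of FAD2-2 was called. A missed threshold still does not show that a gene did not differ. Precision is limited by the 3 samples, with 1 control among them, since the 2 arrays of each sample are technical.

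The rule names every member and, of the pathway list, called probe sets with 1 symbol and the 2 largest differences each way. SACPD-C, FAT1, the ACCA, ACCC-2 and KAS probe sets and the plastid desaturases were added after their values were seen. List members were assigned from symbols, with galactolipid synthesis genes left out. Members and lists were chosen with earlier results of these data known. Alternatives covered scaling, pseudocount, filter, moderation, replicate unit and leaving out each array.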

Additional observations from a re-analysis of the deposited data

How the results depend on the processing

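Every count of calls in the RNAi lines against the control depended on the settings. With the deposited scaling 451 probe sets were called, 3 of them members and 1 of the pathway list. All these counts were 0 after quantile normalization, median centring, a pseudocount of 1, no filter (37593 tested) or robust moderation, at lowest adjusted p-values of 0.0713, 0.0511, 0.062, 0.193 and 0.0506; at an unadjusted p below 0.05 these fits had 8901, 9095, 8749, 8115 and 8954 probe sets. The counts of all, member and pathway calls were 3547, 7 and 6 with a pseudocount of 64; 3323, 7 and 5 with the filter at the 99th percentile; 8517, 8 and 15 with an intensity trend; 6733, 8 and 11 with arrays as replicates; 10196, 8 and 15 with the sample as a random block. They were 14206, 7 and 8 with hybridisation control scaling and 26511, 7 and 26 with poly-A spike scaling, where 3.27% and 0.234% of the calls were lower, against 36.1% with the deposited scaling. Leaving out 1 array gave 0 to 1884, 0 to 7 and 0 to 2 calls, with 0 for any RNAi array.

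The technical replicate number does not pair the samples, and array differences of 1 number correlated at 0.015, -0.0075 and 0.017 between samples. With the replicate block, arrays as replicates, 5940, 8 and 11 were called. Leaving out 1 array gave 5 to 7 members called in RNAi line 1 and 6 to 7 in RNAi line 2, against 8 each; quantile normalization gave 8 in each, and a pseudocount of 1 or the replicate block 7. Between the lines the count was 0 in each of these fits.

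At the brighter probe set of each gene, FAD2-2 minus FAD2-1A was -1.02 after quantile normalization and -0.98 to -0.79 when 1 array was left out. With the deposited scaling the dimmer FAD2-2 probe set, at -1.20, lay between the FAD2-1A values of -1.16 and -1.31. With poly-A spike scaling the FAD2-1A values turned to 0.42 and 0.27, the dimmer FAD2-2 to 0.38, FAD2-3 to 0.29, FAD3B to 1.45 and FAD3C to 1.12; with hybridisation control scaling FAD3B turned to 0.37 and FAD3C to 0.045. No other tested member difference changed direction under these scalings, the pseudocounts or the left-out arrays. The cause of these shifts was not tested, and signal saturation at bright probe sets was not measured.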
